A study of Rattus norvegicus with 6 samples.

Results

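The genes described here encode the pore-forming and accessory subunits of voltage-gated sodium channels (Scn genes) and voltage-gated calcium channels (Cacna1, Cacna2d, Cacnb and Cacng genes), the hyperpolarization-activated cyclic nucleotide-gated (HCN) channels, and the transient receptor potential (TRP) channels of the TRPA, TRPC, TRPM and TRPV families. They were taken by symbol, as the rows whose names follow the standard pattern of these families, without Cacna1d and Cacnb2. The set was chosen with earlier results of these data known. This gave 64 genes of the 32883 in the table. Expression was measured by RNA-seq in the vestibular sensory epithelium of male adult Long-Evans rats that were 8 to 9 weeks old on arrival. In the IDPN-4wk group, 3 rats received 3,3'-iminodipropionitrile (IDPN), which damages the sensory hair cells (HCs) of the inner ear, at 20 mM in drinking water over 4 weeks. The 3 control rats drank plain water, and no genetic alteration was involved in either group. The 2 utricles and 6 cristae of an animal were pooled, so that a library is 1 animal and holds every cell type of the dissected epithelium.

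These channels turn changes in membrane voltage, ligands or temperature into flows of sodium, calcium or mixed cations. In a voltage-gated channel, a large alpha subunit forms the pore and senses voltage, and smaller subunits set its amount at the surface and its kinetics. HCN channels open when the membrane is hyperpolarized and carry the inward current known as Ih, which vestibular HCs and vestibular neurons both have. TRP channels are a diverse superfamily of cation channels that respond to heat, chemicals, lipids, oxidants or intracellular calcium. HCs use voltage-gated calcium channels at their ribbon synapses, and the nerve terminals that contact them use sodium channels to start spikes.

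The libraries held from 13358678 to 18561991 counts, and a count of 0 in a library allows up to 3 counts, or 0.155 to 0.216 CPM (counts relative to the TMM-adjusted size of a library), for counting error only. Pearson correlations between libraries over the tested genes ranged from 0.98 to 0.983 within groups and from 0.953 to 0.966 between groups, so no library stood apart from its group. The labelled tissue was checked against its defining markers. All 19 HC markers and 11 of the 12 supporting cell markers listed passed the filter on low counts. The summed HC marker level ranged from 4086 to 4286 CPM in control and from 2464 to 2967 CPM in IDPN-4wk libraries, and 11 of the 19 HC markers were past both thresholds, all lower in IDPN-4wk. In bulk samples, fewer cells of a type and less RNA per cell cannot be told apart.

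Of the 64 channel genes, 44 had enough counts to be tested, and 9 of these were downregulated in IDPN-4wk while none was upregulated. A gene was called when its Benjamini-Hochberg adjusted p (Padj) from the quasi-likelihood test of edgeR was under 0.05 and its fold change was over 1.5. Over all 14352 genes tested, 9.71% were called, 6.62% as downregulated and 3.09% as upregulated, so that 68.1% of the calls were lower. With library size as the scaling in place of TMM, that split was 50.6% and 3 channel genes (Cacnb4, Trpm4 and Trpv2) were upregulated beside the same 9 downregulated ones. The downregulated genes included the sodium channel gene Scn7a, the calcium channel genes Cacna1e, Cacna1i, Cacna2d1, Cacna2d3 and Cacng2, and the TRP channel gene Trpm2. The 9 genes were 20.5% of the channel genes tested. That share is not an independent comparison with the background, since 8 of the tested channel genes reached the minimum of 10 counts in every control library but not in every IDPN-4wk library, against 2 for the opposite case. Cacna1i, Cacna2d3 and Cacng2 were among those 8.

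The count of 0 upregulated channel genes came from edgeR with both thresholds. At an unadjusted p under 0.05, 6 channel genes were higher and 12 were lower, where 15.6% of all genes tested were higher and 17.4% were lower. With DESeq2 and the same thresholds, again 9 channel genes were lower and 0 higher, against 6.43% and 2.92% of all genes it tested, and they were the same 9 genes. The libraries of the groups did not overlap for 14 channel genes that were lower in IDPN-4wk and for 6 that were higher, and over all genes tested these shares were 19.3% and 18.5%. The median log2-Fold change of the 44 channel genes was -0.24, beside 0.02 over all genes tested.

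Filtering removed 20 of the 64 genes, and 16 of these had fewer than 10 counts in every library. No read was counted in any library for Scn11a, Cacng1, Cacng3 and Trpv5. The highest count of a removed gene was 24, for Trpc4, which had 24, 19 and 1 counts in control and 1, 4 and 7 counts in IDPN-4wk libraries. The groups overlapped through the third control library, and of the fits run Trpc4 was called, as downregulated, only in the one without that library. Among the sensory channels of this set, Trpa1, the receptor for pungent irritants, had 7, 7 and 6 counts in control and 2, 1 and 4 counts in IDPN-4wk libraries. The cardiac pacemaker gene Hcn4 had 2, 0 and 0 counts in control and 4, 3 and 9 counts in IDPN-4wk libraries. Both were removed by the filter, and in the fit without it neither passed the test (log2-Fold change -1.58 and edgeR Padj = 0.278 for Trpa1, 2.70 and 0.175 for Hcn4).

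**Figure D1:**
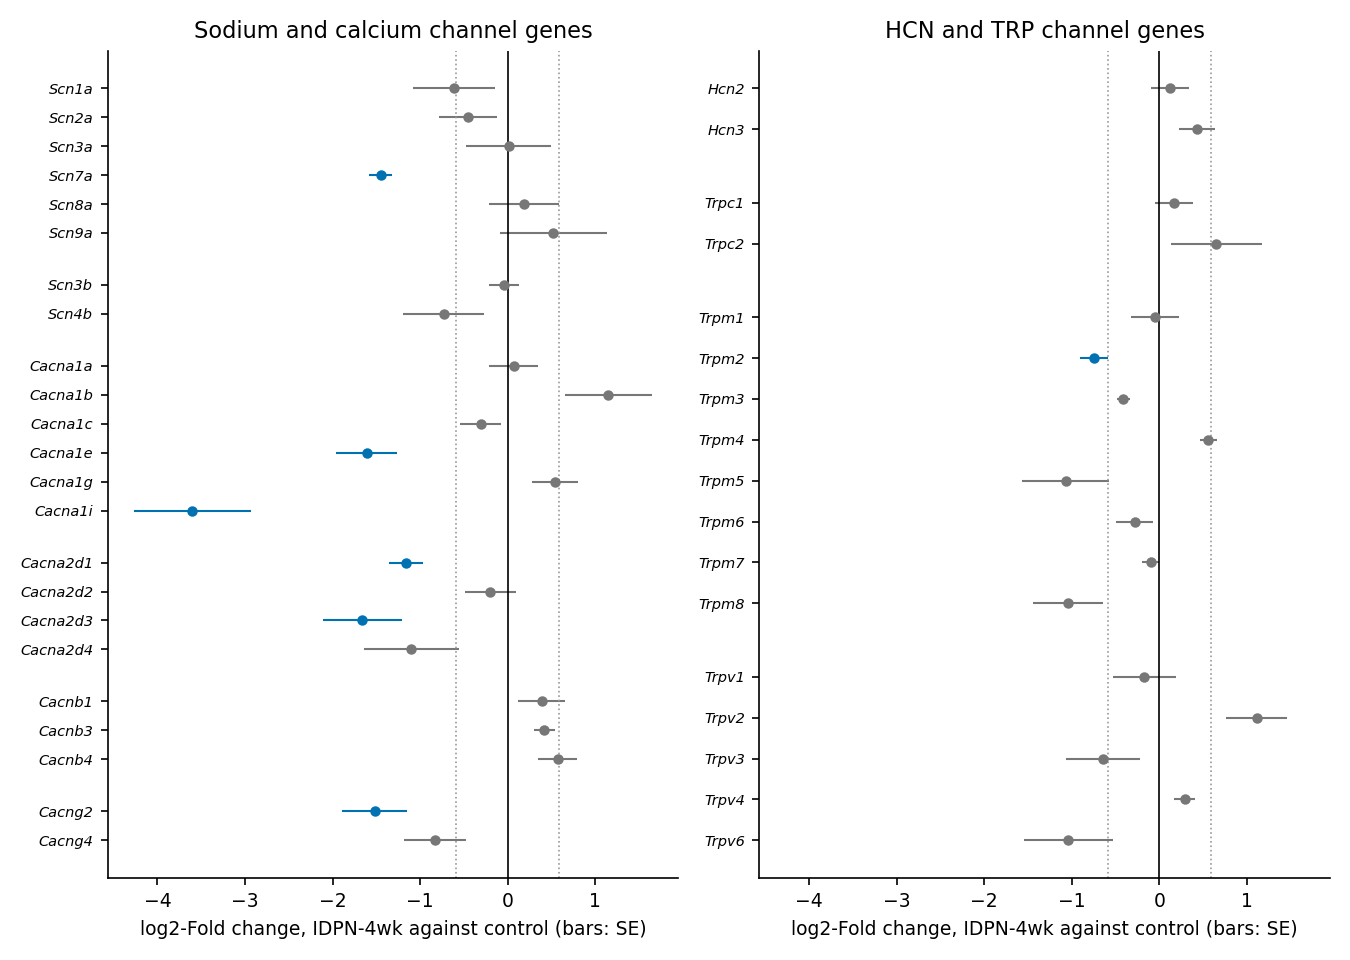
log2-Fold change of 40 of the tested channel genes, IDPN-4wk against control, with the SE as a bar and the genes grouped by role. Dotted lines mark the fold change threshold of 1.5 in either direction, and the 7 genes in blue, all on the negative side, were past both thresholds.

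Sodium channel alpha subunits form the pore that carries the rapid inward current of the action potential. Scn7a (ENSRNOG00000029342) encodes the atypical channel Nax, known as a sensor of extracellular sodium in glia and Schwann cells, and it had the most counts of the alpha subunit genes. Its level was 94.6, 71.6 and 92.3 CPM in control and 33.1, 27.2 and 34.6 CPM in IDPN-4wk libraries. Every IDPN-4wk library was below every control library, with little spread among the treated animals. The mean was 86.2 CPM ± 12.7 (SD, n = 3) in control and 31.6 CPM ± 3.92 (SD, n = 3) in IDPN-4wk libraries, and the log2-Fold change was -1.45 (SE 0.13, edgeR Padj = 4.73e-05).

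Schwann cell and myelin markers were read beside it. Of the 9 tested, 2 were downregulated and none was upregulated, their median log2-Fold change was -0.55, and their summed level ranged from 8509 to 10753 CPM in control and from 5813 to 8713 CPM in IDPN-4wk libraries, so that the groups overlapped. The log2-Fold changes of these 9 markers ranged from -0.68 to 0.24, and that of Scn7a lay below them. The part of Schwann cell RNA in the change of Scn7a was not tested.

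The neuronal alpha subunit genes Scn1a, Scn2a, Scn3a, Scn8a and Scn9a did not pass the test, and their groups overlapped. Their log2-Fold changes ranged from -0.61 (Scn1a, SE 0.47, edgeR Padj = 0.401) to 0.52 (Scn9a, SE 0.61, edgeR Padj = 0.598). Scn8a, the gene of the main channel of mature nodes of Ranvier, was at 1.87, 1.26 and 1.63 CPM in control and 2.08, 1.03 and 2.38 CPM in IDPN-4wk libraries. With SEs of 0.33 to 0.61, changes of moderate size in these 5 genes could not be seen. The 10 neuron markers listed gave 8 tested genes, with 2 downregulated and 2 upregulated, and a sum of 108 to 122 CPM in control and 90.1 to 94.3 CPM in IDPN-4wk libraries. Without Snap25 these sums overlapped, at 86.1 to 97.5 CPM and 79.5 to 88.3 CPM.

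Sodium channel beta subunits are single-span proteins that act on gating and on cell adhesion, and neither Scn3b nor Scn4b passed the test. Scn3b, the beta subunit gene with the most counts, was at 19.9, 21.7 and 16.4 CPM in control and 18.0, 15.1 and 23.2 CPM in IDPN-4wk libraries. The ranges lay over each other, and the log2-Fold change was -0.04 (SE 0.17, edgeR Padj = 0.885). Scn4b had a log2-Fold change of -0.73, with an SE of 0.46.

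Of the 9 genes for the calcium channel pore subunit alpha1, 6 were tested, and Cacna1e and Cacna1i were downregulated. Cacna1e (ENSRNOG00000002863) encodes the R-type channel Cav2.3, a presynaptic and dendritic calcium channel of neurons. It was at 5.88, 6.85 and 6.37 CPM in control and 1.01, 1.91 and 3.28 CPM in IDPN-4wk libraries. The controls were tightly grouped, while the treated libraries were spread over a wide range that stayed below them. The log2-Fold change was -1.61 (SE 0.35, edgeR Padj = 0.00967).

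Cacna1i encodes Cav3.3, a low-voltage-activated T-type channel that supports burst firing in thalamic neurons. Its row (ENSRNOG00000060407) is typed in the table as a processed transcript rather than as protein coding, so the value may not stand for the full coding mRNA. It had 26, 33 and 22 counts in control and 5, 2 and 0 counts in IDPN-4wk libraries, or 1.68, 2.31 and 1.56 CPM against 0.359, 0.103 and 0 CPM. Reads in the treated libraries were close to or under the limit that a count of 0 allows. The fitted log2-Fold change was -3.60 (SE 0.67, edgeR Padj = 0.00426), and at such counts it depends on the fit more than the other values do.

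Of the 19 HC markers, 11 were downregulated, as Cacna1e and Cacna1i were. The rest were not called, among them Gfi1, Strc, Tmc2 and Ush1c (edgeR Padj from 0.0918 to 0.871). The log2-Fold changes of the 19 HC markers were all negative, with a median of -0.89 and a range from -3.09 to -0.07. The value of Cacna1e lay inside that range and that of Cacna1i below it. The part of HC number in the change of either gene was not tested, and the cell types that carry these transcripts were not determined here.

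Cacna1c, the gene of the L-type channel Cav1.2, had the most counts of the alpha1 genes chosen by the pattern and did not pass the test. It was at 12.6, 8.39 and 11.3 CPM in control and 7.19, 7.32 and 11.6 CPM in IDPN-4wk libraries, with overlapping groups (log2-Fold change -0.31, SE 0.23, edgeR Padj = 0.387). Cacna1a, Cacna1b and Cacna1g, for P/Q-type, N-type and T-type channels, had positive log2-Fold changes of 0.07, 1.15 and 0.54 that did not pass the test (edgeR Padj from 0.135 to 0.883). Cacna1d, which was left out of the set, encodes Cav1.3, the main calcium channel of HC synapses. It was downregulated, at 74.5, 89.7 and 88.3 CPM in control and 29.8, 33.2 and 48.1 CPM in IDPN-4wk libraries (log2-Fold change -1.18, SE 0.16, edgeR Padj = 0.000513).

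All 4 genes for alpha2delta subunits, the extracellular subunits that bring calcium channels to the surface, were tested, and 2 were downregulated. Cacna2d1 (ENSRNOG00000033531), whose product binds gabapentin, was at 96.4, 118 and 91.4 CPM in control and 32.4, 62.5 and 41.6 CPM in IDPN-4wk libraries. The groups were well apart, and the spread was of like size in both. The log2-Fold change was -1.16 (SE 0.19, edgeR Padj = 0.00232), and the IDPN-4wk mean was 44.6% of the control mean.

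Cacna2d3 (ENSRNOG00000031287), a neuronal alpha2delta gene, was at 4.46, 6.43 and 5.17 CPM in control and 0.431, 2.63 and 1.87 CPM in IDPN-4wk libraries. The first IDPN-4wk library was far lower than the other two. The log2-Fold change was -1.66 (SE 0.45, edgeR Padj = 0.0266), and the call was lost without control replicate 2 (Padj = 0.091) and without control replicate 3 (Padj = 0.065). Cacna2d2 and Cacna2d4 had log2-Fold changes of -0.20 and -1.10, with SEs of 0.29 and 0.54, and did not pass the test. The first IDPN-4wk library had the lowest level of the 6 for Cacna2d1, Cacna2d3 and Cacna1e.

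The beta subunits bind the alpha1 subunit from inside the cell and promote its export to the membrane, and the 3 genes tested in this class all had positive log2-Fold changes, with a median of 0.42. Cacnb3 was at 56.7, 58.7 and 43.8 CPM in control and 77.0, 74.1 and 62.5 CPM in IDPN-4wk libraries. Every treated library was above every control. Its log2-Fold change of 0.42 (SE 0.12, edgeR Padj = 0.0319) was under the fold threshold, and in the fits that left out a library its Padj reached 0.12, without IDPN-4wk replicate 1. Cacnb4 and Cacnb1 did not reach a Padj of 0.05 (log2-Fold changes 0.57 and 0.39, edgeR Padj = 0.0918 and 0.346). Cacnb2, left out of the set, had a log2-Fold change of the other sign (-0.49, SE 0.19, edgeR Padj = 0.0951) and did not pass the test either.

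Gamma subunits form a family in which several members carry AMPA-type glutamate receptors to the membrane rather than acting on calcium channels. Of 8 genes, 6 were removed by the filter. Cacng2 (ENSRNOG00000006226), the gene of stargazin, was at 1.87, 1.82 and 1.63 CPM in control and 0.575, 0.671 and 0.579 CPM in IDPN-4wk libraries. The libraries of a group were close together and the groups lay well apart. Its log2-Fold change was -1.52 (SE 0.37, edgeR Padj = 0.0169), which was past the threshold in 3 of the 6 fits without a library and reached a Padj of 0.0629 in the others. Cacng4, another carrier of AMPA receptors and the gamma gene with the most counts, was at 5.68, 3.98 and 4.18 CPM in control and 2.95, 1.39 and 3.54 CPM in IDPN-4wk libraries, which did not overlap, and it did not pass the test (log2-Fold change -0.83, SE 0.35, edgeR Padj = 0.122).

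The HCN channel genes Hcn2 and Hcn3 did not pass the test. Hcn3, the HCN gene with the most control counts, was at 7.23, 5.66 and 5.66 CPM in control and 8.05, 7.02 and 9.98 CPM in IDPN-4wk libraries, and the groups overlapped (log2-Fold change 0.43, SE 0.21, edgeR Padj = 0.178). Hcn2, whose product responds strongly to cyclic AMP, had a mean of 5.46 CPM ± 1.09 (SD, n = 3) in control and 5.91 CPM ± 0.471 (SD, n = 3) in IDPN-4wk libraries, and the log2-Fold change was 0.12 (SE 0.22, edgeR Padj = 0.747).

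**Figure D2:**
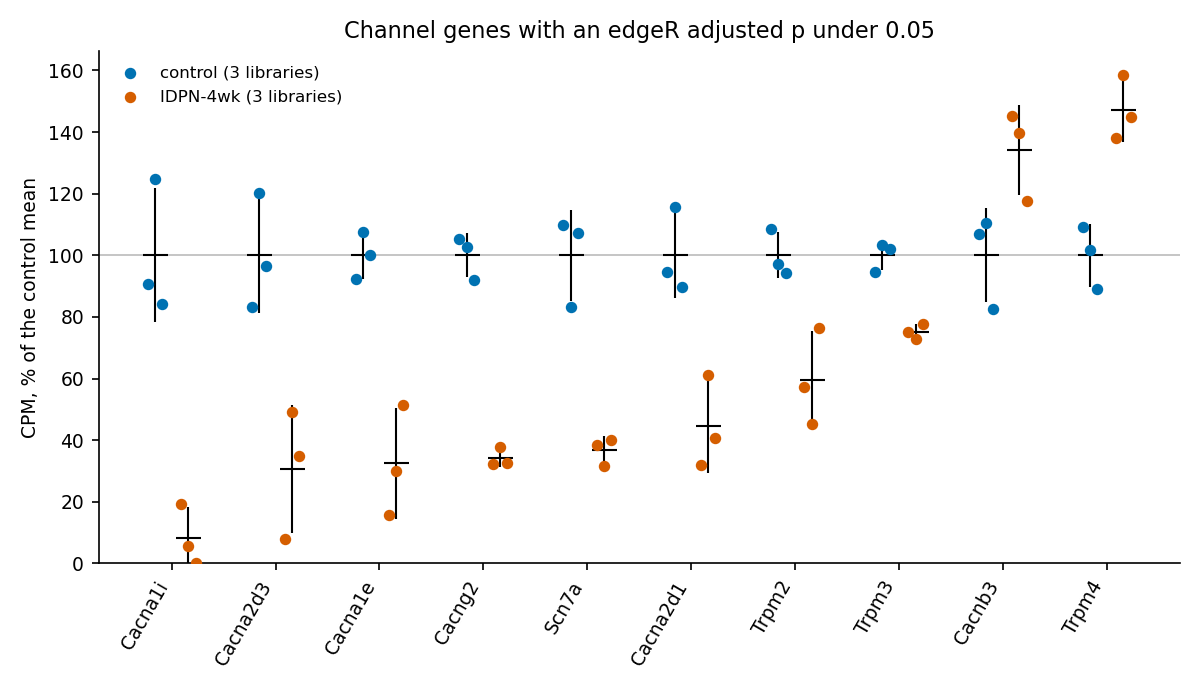
CPM of each library as a percent of the control mean for 10 channel genes with an edgeR Padj under 0.05, with points for libraries, a horizontal line for the group mean and a bar for the SD (n = 3). Trpm3, Cacnb3 and Trpm4 changed by less than 1.5-fold, and the other 7 were downregulated, with IDPN-4wk means from 8.35% of control for Cacna1i to 59.7% for Trpm2.

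All 8 genes of the TRPM family were tested. Trpm2 (ENSRNOG00000001216) encodes a calcium-permeable channel opened by ADP-ribose and oxidative stress. It was at 78.3, 70.3 and 68.1 CPM in control and 41.3, 32.8 and 55.2 CPM in IDPN-4wk libraries. All treated libraries were below the controls. Its log2-Fold change was -0.75 (SE 0.16, edgeR Padj = 0.00727), and without IDPN-4wk replicate 2 it was -0.58, under the fold threshold, with a Padj of 0.0177.

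Trpm3 and Trpm4 changed by less than 1.5-fold and in opposite directions. Trpm3, a channel opened by heat and by the neurosteroid pregnenolone sulfate, was at 140, 153 and 151 CPM in control and 111, 108 and 115 CPM in IDPN-4wk libraries (log2-Fold change -0.41, SE 0.07, edgeR Padj = 0.00234). Trpm4, a monovalent cation channel opened by intracellular calcium, was at 37.1, 34.6 and 30.2 CPM in control and 46.9, 53.8 and 49.2 CPM in IDPN-4wk libraries. For both genes the groups did not overlap and the SD was under 4 CPM in the treated group. The log2-Fold change of Trpm4 was 0.56 (SE 0.10, edgeR Padj = 0.00365), just under the threshold of 0.585, and over the fits without 1 library it ranged from 0.48 to 0.63, with 2 of 6 past both thresholds (those that left out control replicate 1 or IDPN-4wk replicate 1). Over all genes tested, 19.4% had a Padj under 0.05 with no fold threshold, and 12 of the channel genes did.

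The remaining TRPM genes did not pass the test. Trpm7, a ubiquitous channel with a kinase domain that carries magnesium, was at 60, 49.4 and 50 CPM in control and 50.5, 47.6 and 50.5 CPM in IDPN-4wk libraries (log2-Fold change -0.10, SE 0.10, edgeR Padj = 0.495). The cold receptor gene Trpm8 was at 1.87, 2.17 and 1.77 CPM in control and 0.791, 0.619 and 1.42 CPM in IDPN-4wk libraries, which did not overlap (log2-Fold change -1.04, SE 0.40, edgeR Padj = 0.0958). Over the fits without 1 library its Padj ranged from 0.0422 to 0.273, with 1 of 6 past both thresholds (without IDPN-4wk replicate 3). Trpm1, Trpm5 and Trpm6 had log2-Fold changes of -0.05, -1.07 and -0.28 and overlapping groups.

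In the TRPV family 5 of 6 genes were tested and none was called with TMM and all libraries. Trpv4, a channel sensitive to osmotic stimuli and warmth and the TRPV gene with the most counts, was at 21.2, 19.2 and 19.4 CPM in control and 22.9, 26.9 and 22.9 CPM in IDPN-4wk libraries. The treated libraries were all above the controls, but the log2-Fold change of 0.29 (SE 0.12, edgeR Padj = 0.116) did not pass the test. Trpv2, expressed in immune cells among others, was at 1.61, 1.05 and 0.92 CPM in control and 2.37, 2.32 and 3.09 CPM in IDPN-4wk libraries. It missed the threshold narrowly, and the log2-Fold change was 1.11 (SE 0.35, edgeR Padj = 0.0509), and over the fits without 1 library its Padj ranged from 0.0475 to 0.152, with 1 of 6 past both thresholds (without control replicate 1). It was past both thresholds with library size in place of TMM (Padj = 0.0294) and with upper quartile scaling (Padj = 0.0441). Of 10 macrophage and leukocyte markers tested, 1 was downregulated and 1 upregulated, and their sum ranged from 132 to 191 CPM in control and from 97.8 to 186 CPM in IDPN-4wk libraries. Trpv1, Trpv3 and Trpv6 had log2-Fold changes of -0.17, -0.64 and -1.04 and Padj values over 0.05.

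Most TRPA and TRPC genes had few counts, and Trpc1 and Trpc2 did not pass the test. Trpc1, a widely expressed TRPC subunit, was at 7.30, 5.03 and 6.30 CPM in control and 6.33, 6.09 and 8.63 CPM in IDPN-4wk libraries, with overlapping groups (log2-Fold change 0.17, SE 0.22, edgeR Padj = 0.635). Trpc2 was at 0.71, 0.349 and 1.06 CPM in control and 1.37, 0.619 and 1.42 CPM in IDPN-4wk libraries, which overlapped, and the low counts left an SE of 0.52 around its log2-Fold change of 0.65 (edgeR Padj = 0.42).

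How often the call held without 1 library differed among the downregulated genes, which is not the same as the spread of their log2-Fold changes. Scn7a, Cacna1e, Cacna1i and Cacna2d1 were past both thresholds in all 6 fits that each left out a library, although the test against 1.5-fold itself (glmTreat) did not call Cacna1e (Padj = 0.0782) or Cacna2d1 (Padj = 0.0503), nor Trpm2, Cacna2d3 and Cacng2 (Padj from 0.138 to 0.678). Trpm2 was past both in 5 of them, Cacna2d3 in 4 and Cacng2 in 3. The log2-Fold changes of these 7 genes stayed negative in all of the fits. Cacna1i had the widest range of the 7, from -4.85 to -3.06, and the range of Scn7a was from -1.57 to -1.35. Cacng2 had the narrowest, from -1.61 to -1.48, and its Padj lay near the threshold, at 0.0415 to 0.0629. Cacna1e, called in all 6 fits, ranged from -2.10 to -1.31.

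**Figure D3:**
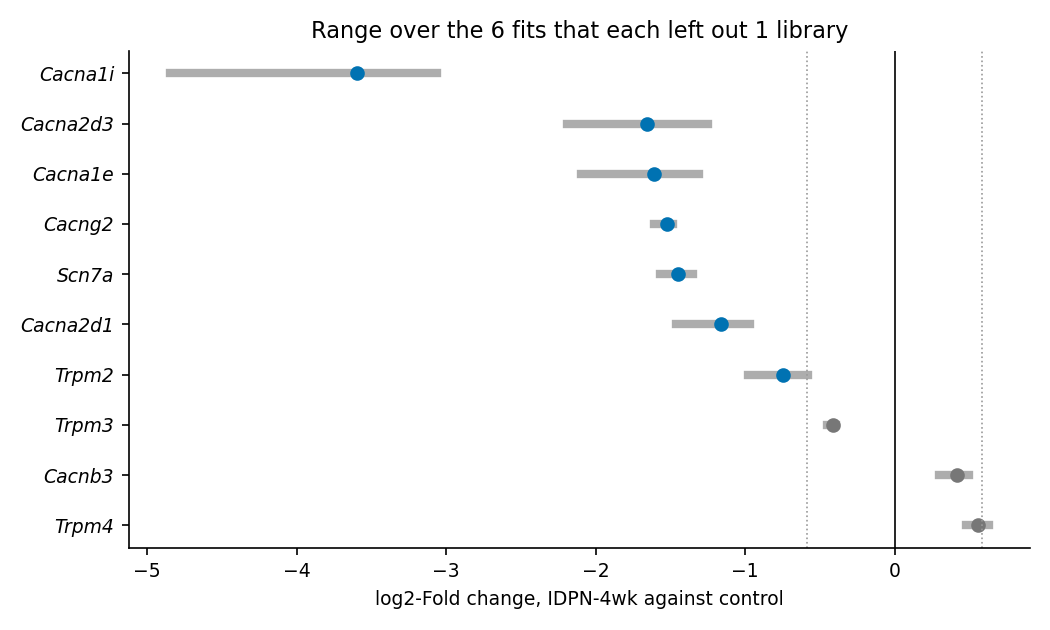
log2-Fold change of 10 channel genes with an edgeR Padj under 0.05 (points, all 6 libraries) and its range over the 6 fits that each left out 1 library (grey bars). Dotted lines mark the fold threshold of 1.5, and the bars of 6 of the 7 downregulated genes plotted lie wholly past it, that of Trpm2 reaching -0.58.

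The upstream sequence of 4 of the downregulated genes is shown because they come from different channel classes and moved in the same direction. The sequences are the 250 bases before the gene start in RefSeq, on build GRCr8, which is not the build of the counts, and genes were matched by symbol. Of the 64 channel genes 45 had an entry, and of the 9 downregulated genes 6 did. Each is written 5′ to 3′ on the strand of the gene, with searched motifs in capitals: the TATA box (TATAAA), the GC box (GGGCGG) and the E-box (CAGCTG), on either strand, where GC boxes may overlap each other.
Scn7a: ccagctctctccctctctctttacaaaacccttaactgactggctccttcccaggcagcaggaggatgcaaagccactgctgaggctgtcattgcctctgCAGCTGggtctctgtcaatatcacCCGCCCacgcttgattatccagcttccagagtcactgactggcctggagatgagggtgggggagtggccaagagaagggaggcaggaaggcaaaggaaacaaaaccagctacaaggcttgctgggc
Cacna1e: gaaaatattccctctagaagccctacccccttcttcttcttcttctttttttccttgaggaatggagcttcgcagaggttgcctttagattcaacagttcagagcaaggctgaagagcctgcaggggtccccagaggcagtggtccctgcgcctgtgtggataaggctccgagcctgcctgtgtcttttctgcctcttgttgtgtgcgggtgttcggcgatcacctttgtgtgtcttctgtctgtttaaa
Cacna2d3: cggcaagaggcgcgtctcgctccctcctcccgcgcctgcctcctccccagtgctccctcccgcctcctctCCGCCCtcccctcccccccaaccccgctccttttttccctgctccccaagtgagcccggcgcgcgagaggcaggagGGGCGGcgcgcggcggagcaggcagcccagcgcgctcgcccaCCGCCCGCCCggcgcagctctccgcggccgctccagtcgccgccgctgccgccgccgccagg
Cacng2: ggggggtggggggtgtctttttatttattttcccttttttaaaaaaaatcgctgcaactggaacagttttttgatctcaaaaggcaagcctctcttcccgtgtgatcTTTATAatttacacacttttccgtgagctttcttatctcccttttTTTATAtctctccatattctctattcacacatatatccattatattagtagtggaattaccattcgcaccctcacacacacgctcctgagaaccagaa
The Scn7a sequence lies at chr3:71846285-71846534, that of Cacna1e at chr13:69444811-69445060, that of Cacna2d3 at chr16:4918900-4919149 and that of Cacng2 at chr7:111577758-111578007, all on the minus strand. They had no base composition in common, with a GC content of 56.0% for Scn7a, 51.2% for Cacna1e, 78.8% for Cacna2d3 and 38.4% for Cacng2, beside a median of 51.2% over all promoters in that table.

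A GC box was found in 4 of the 6 downregulated genes with an entry (Scn7a, Cacna2d1, Cacna2d3 and Trpm2) and in 16 of the 45 channel genes with an entry. It was in 30.5% of the 33469 upstream windows in the RefSeq table. Counts of genes take any window of a gene, and Cacna2d1 had several, while shares over that table are by window. An E-box of the searched form was found for Scn7a and a TATA box for Cacng2, and these motifs were in 12.0% and 12.9% of all windows. The CCAAT box (CCAAT) and the RE1 core (TTCAGCAC) were in 34.0% and 0.855% of all windows and in none of the 6 genes. No searched motif was present in all of these windows. A match describes letters in the window and not a bound site.

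Proteins that bind, place or regulate these channels were read from lists of 58 genes, of which 57 were in the table and 50 were tested. Of these, 14 were downregulated and none was upregulated by edgeR with both thresholds, TMM and all libraries. The epithelial sodium channel gene Scnn1a came near, at a log2-Fold change of 1.03 with groups that did not overlap (SE 0.34, Padj = 0.0534), and it was called with upper quartile scaling, with either other filter and without control replicate 1. Without that library Scnn1g was called as well, and Gem was called without IDPN-4wk replicate 1. Without 1 library, 8 to 15 partners were lower, and glmTreat called 3. Over all genes tested, 6.62% were downregulated. The share of partners is not an independent comparison with this, since the lists were chosen with earlier results known. The called genes Fgf12 and Ryr2 also reached 10 counts in every control library but not in every IDPN-4wk library. Cabp4, which was not called, was the opposite case. The 50 partners had a median of -0.16, beside 0.02 over all genes. At an unadjusted p under 0.05, 18 were lower and 7 higher, where 17.4% and 15.6% of all genes were, so that the 7 of 50 were near the background. With DESeq2 14 were lower and 1 (Scnn1a) higher, against 6.43% and 2.92% of all genes. With library size in place of TMM, 12 were lower and 3 (Gem, Scnn1a and Scnn1b) higher.

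Sodium channel partners gave 4 downregulated genes of 8 tested. Ank3, the ankyrin that anchors sodium channels at axon initial segments and nodes, was at 96.6, 104 and 101 CPM in control and 58.3, 56.9 and 61.7 CPM in IDPN-4wk libraries (log2-Fold change -0.77, SE 0.07, edgeR Padj = 8.06e-05). The nodal adhesion molecules Nrcam and Nfasc had log2-Fold changes of -0.78 (SE 0.13, edgeR Padj = 0.00185) and -0.65 (SE 0.14, edgeR Padj = 0.00784). The call of Nfasc was lost without control replicate 1, IDPN-4wk replicate 1 or IDPN-4wk replicate 2, and with library size in place of TMM (-0.54). Fgf12, a fibroblast growth factor homologue that binds sodium channels inside the cell, fell from 2.3 CPM ± 0.579 (SD, n = 3) to 0.638 CPM ± 0.287 (SD, n = 3), and the log2-Fold change was -1.84 (SE 0.43, edgeR Padj = 0.0128). That call was lost without control replicate 3, IDPN-4wk replicate 1 or IDPN-4wk replicate 2.

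The sodium leak channel is a related voltage-insensitive channel that holds the resting potential of many neurons. Its pore gene Nalcn was at 193, 198 and 202 CPM in control and 122, 109 and 125 CPM in IDPN-4wk libraries, and both groups were tight and far apart (log2-Fold change -0.74, SE 0.07, edgeR Padj = 0.000105). Its subunit gene Unc80 was also downregulated (log2-Fold change -0.75, SE 0.19, edgeR Padj = 0.0187), a call lost in 4 of the 6 fits, those without control replicate 1 or 3 and without IDPN-4wk replicate 1 or 2.

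Calcium channel partners gave 4 downregulated genes of 11 tested. Cabp2, a calmodulin-like protein that slows inactivation of the HC calcium channel, was at 211, 247 and 227 CPM in control and 127, 128 and 146 CPM in IDPN-4wk libraries (log2-Fold change -0.77, SE 0.08, edgeR Padj = 0.000167). Rims2, an active zone scaffold, changed by -1.57 on the log2 scale (SE 0.29, edgeR Padj = 0.00403). Rem2, a small GTPase that inhibits calcium channels, was lower as well, from 26.7 CPM ± 3.90 (SD, n = 3) to 14.6 CPM ± 0.323 (SD, n = 3), and the log2-Fold change was -0.88 (SE 0.13, edgeR Padj = 0.00109). The list thus held genes that act on calcium channels in opposite ways. The adaptor gene Stac changed by -1.15 on the log2 scale (SE 0.30, edgeR Padj = 0.0223), and its call was lost without control replicate 2, control replicate 3 or IDPN-4wk replicate 1.

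HCN partners gave 2 downregulated genes of 4 tested, and neither held in all fits without a library. Kcne2, a single-span subunit of potassium channels that can also join HCN channels, changed by -1.07 on the log2 scale (SE 0.27, edgeR Padj = 0.0178) and was lost without control replicate 3 or IDPN-4wk replicate 1. Pex5l, the auxiliary protein known as TRIP8b, changed by -0.66 on the log2 scale (SE 0.18, edgeR Padj = 0.0298) and was past both thresholds in 1 of the 6 fits, that without IDPN-4wk replicate 3. With library size in place of TMM it was -0.55, under the fold threshold.

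Of the calcium release and other cation channels listed, 2 of 19 tested were downregulated, both of them ryanodine receptors, which release calcium from the endoplasmic reticulum. Ryr3 was at 131, 140 and 148 CPM in control and 44.9, 52.0 and 70.0 CPM in IDPN-4wk libraries (log2-Fold change -1.33, SE 0.14, edgeR Padj = 0.000119). Ryr2 was at 3.49, 4.89 and 4.46 CPM in control and 0.0719, 0.774 and 0.901 CPM in IDPN-4wk libraries, the first of which was under the limit that a count of 0 allows (log2-Fold change -2.81, SE 0.51, edgeR Padj = 0.00332). Ryr1, the form of skeletal muscle, did not pass the test. None of the 5 other TRP superfamily genes tested, the mucolipins and polycystins, was called, and their log2-Fold changes ranged from -0.06 to 0.15.

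**Figure D4:**
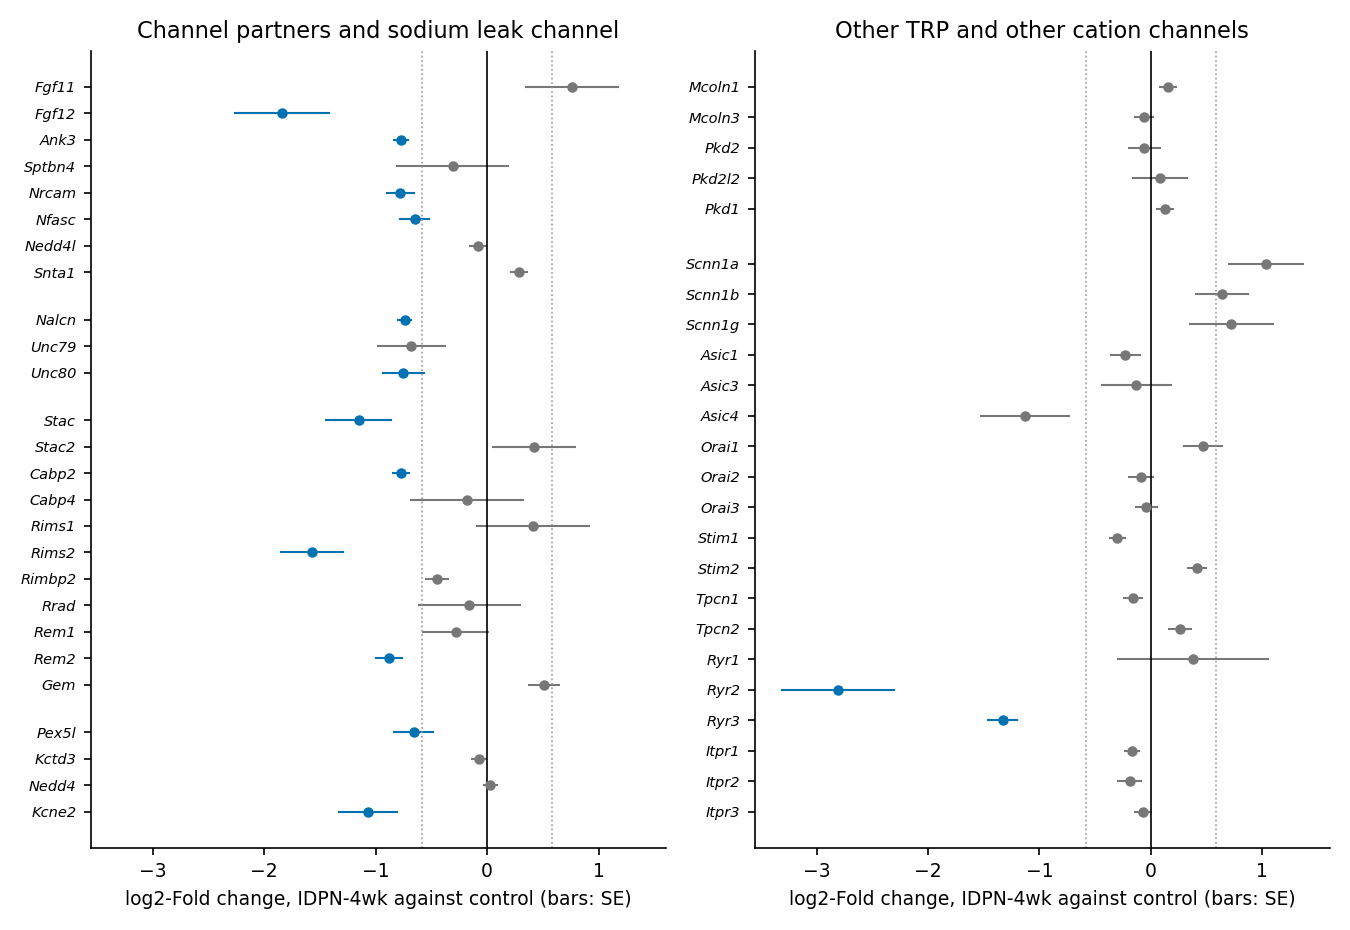
log2-Fold change, IDPN-4wk against control, of the 50 tested genes for channel partners, the sodium leak channel and other cation channels, with the SE as a bar. Dotted lines mark the fold threshold of 1.5, and the 14 genes in blue were past both thresholds, all lower in IDPN-4wk.

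Markers of several other cell types moved with treatment. Of 11 supporting cell markers tested, 3 were downregulated, and their sum ranged from 10545 to 11569 CPM in control and from 5955 to 7226 CPM in IDPN-4wk libraries. Of 8 markers of dark cells, the ion-secreting cells next to the sensory epithelium, 3 were downregulated, with sums of 1693 to 2114 CPM against 1162 to 1373 CPM. Stromal markers (1 downregulated and 1 upregulated of 9 tested) summed to 20073 to 23422 CPM in control and 15989 to 18899 CPM in IDPN-4wk libraries. Most of that sum was Coch, and without it the groups overlapped, at 999 to 1160 CPM and 956 to 1049 CPM. No marker of the melanocyte (6 tested) and endothelium (6 tested) lists was called, and the endothelial sums overlapped, from 447 to 595 CPM and from 444 to 505 CPM. The melanocyte sums were 558 to 695 CPM in control and 491 to 531 CPM in IDPN-4wk libraries.

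Blood and muscle markers were also read. The red blood cell sums were 264 to 315 CPM in control and 306 to 626 CPM in IDPN-4wk libraries, which overlapped, and 2 of 5 tested markers were upregulated. The skeletal muscle sums were 28.0 to 33.7 CPM in control and 57.0 to 90.9 CPM in IDPN-4wk libraries, with 1 of 3 tested markers (Myh4) upregulated. That difference rested on Myh4, since without it the muscle sums were lower in IDPN-4wk libraries, at 16.5 to 19.1 CPM against 21.6 to 23.1 CPM in control. Leaving out Coch, Snap25 and Myh4 was decided after seeing the data. Of the skeletal muscle list, Ckm, Tnni2 and Myl1 were at 0 in all 6 libraries. Tnnc2 had 97 to 224 counts and Casq1 had 118 to 168 counts in a library. Actn3 had 2, 0 and 0 counts in control and 5, 12 and 6 counts in IDPN-4wk libraries. Cacna1s and Scn4a, the channels of the muscle fibre, had at most 2 counts in a library. The part of these cell types in the changes of the channel genes was not tested.

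**Figure D5:**
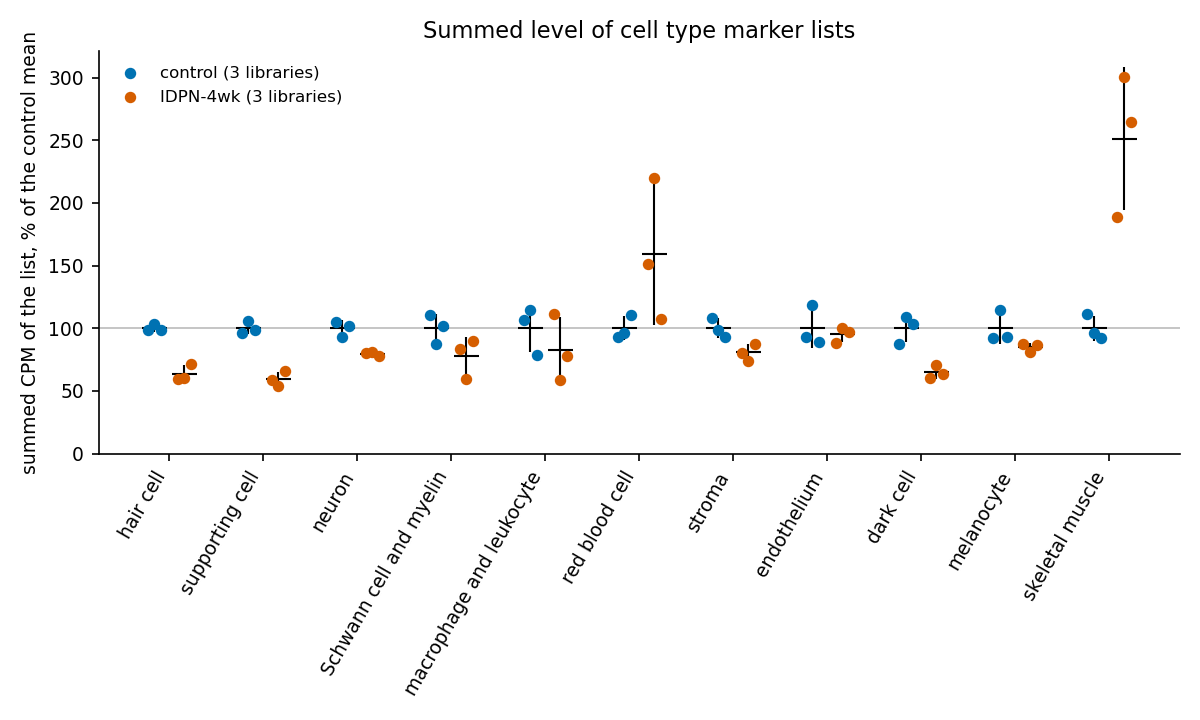
Summed CPM of each list of cell type markers in each library as a percent of the control mean, with points for libraries, a horizontal line for the group mean and a bar for the SD (n = 3). The HC, supporting cell, neuron, stroma, dark cell and melanocyte sums of the 3 IDPN-4wk libraries lie below those of the 3 controls, and the skeletal muscle sums lie above them through Myh4 alone, as the stroma and neuron sums lie below through Coch and Snap25.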

How the data were processed

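RNA-seq libraries of the vestibular epithelium were prepared by the authors from 3 control and 3 IDPN-4wk rats with SMART-seq2, an oligo-dT protocol without strand information, and overlapping genes may therefore share reads. The authors mapped reads with STAR 2.5.3a to Rnor6.0, and RSEM gave gene counts (1.3.0 in the submitters' processing notes). The deposited values are expected counts, whole numbers as deposited, and rounding changed none. RSEM divides reads that match several genes among them, so closely related paralogs are less certain. All 6 libraries share 1 batch label. The animal codes of the IDPN-4wk rats share a prefix that no control has, and what it marks is not stated. The suffixes of the codes recur in both groups, with no stated meaning, and were not used to pair animals. Replicate numbers follow the order of the samples in the series.

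With filterByExpr at a minimum count of 10 and a minimum total of 15, 14352 of 32883 genes were kept. They were scaled with TMM and tested over all kept genes with the two-sided quasi-likelihood test of edgeR 4.0.16 in R 4.3.3. The SE of a log2-Fold change is its size over the square root of the F statistic. CPM are TMM-scaled and not per length, so levels were not compared between genes. The p-values measure the spread between these animals. Reads had no molecular identifiers. The test was checked beforehand on data made with known changes. DESeq2 1.42.0, other scalings and filters, glmTreat and leaving out each library were the alternatives.

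The channel genes, partner lists and marker lists were chosen with earlier results of these data known. The rule was to name with values each channel gene with a Padj under 0.05, the gene of each class with the most control counts and each called partner, and any further gene was picked with its values in view. The marker Ocm was read from the row Ocm2. Fam155a and the markers Foxd3, Itgam, Hba-a1, Hbb-b1, Pecam1, Dct, Myh1, Myh2 and Atp2a1 were not matched. Some channel genes, called ones among them, are not reported here, and counts over all channel genes include them.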

Additional observations from a re-analysis of the deposited data

How the results depend on the processing

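The same 9 channel genes were downregulated with TMM, library size alone, DESeq2 size factors, upper quartile scaling, the DESeq2 test and no filter. With library size alone the median of all genes moved from 0.02 to 0.13 and the share of called genes that were lower from 68.1% to 50.6%, and Cacnb4, Trpm4 and Trpv2 became upregulated, at 0.55, 0.54 and 1.09 relative to that median. Upper quartile scaling upregulated 2 channel genes, Trpm4 and Trpv2. Testing against 1.5-fold with glmTreat left 3 channel genes (Cacna1i and Scn7a among them), 3 partners (Rims2, Ryr2 and Ryr3) and 453 genes in all, and Cacna1e, Cacna2d1, Cacna2d3, Cacng2, Trpm2 and the other 11 partners were lost. A mean count of at least 50 left 5 channel genes called of 23 tested. A Padj under 0.05 alone gave 2778 genes. Without 1 library, the count of channel genes past both thresholds ranged from 6 (without control replicate 2) to 10, that of partners from 9 (without control replicate 3 or IDPN-4wk replicate 1) to 15, and that of all genes from 1085 to 1581.

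Changes of sign were seen only for genes that were not called. With library size alone the log2-Fold changes of Scn3b, Trpm1 and Trpm7 were 0.0631, 0.0532 and 0.00562. Without 1 library, the range was -0.24 to 0.0934 for Scn3b, -0.24 to 0.24 for Trpm1, -0.46 to 0.024 for Trpm6 and -0.49 to 0.11 for Trpv1. It was -0.81 to 0.31 for Scn3a, -0.13 to 0.21 for Cacna1a, -0.12 to 0.98 for Scn9a, -0.0626 to 0.49 for Scn8a and -0.0159 to 0.31 for Trpc1. The cause was not tested. Of 709 alternative values, 640 kept their direction and their side of the threshold. No paired analysis was run, because the labels give no replicate numbers and do not state what the suffixes of the animal codes mean. The replicate numbers used here follow the order of the samples in the series. Depth limits the 20 filtered genes and those with few counts, such as Cacna1i.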
